A study of Homo sapiens with 12 samples.

Results

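These data ask what every relapse of HEL cells had in common after chemotherapy, whatever the drugs. HEL is a human erythroleukemia line, an acute myeloid leukemia (AML) model of 1 cell line with erythroid and megakaryocytic features, and the cells carried lentiviral DNA barcodes. Genes were chosen by their own values against the non-treated cells: a gene was taken when all 10 relapse libraries lay above, or all 10 lay below, both non-treated (NT) libraries in CPM, counts per library scaled to a common total by trimmed mean of M-values (TMM) factors. Of 14164 genes tested, 608 (4.29%) lay higher in every relapse and 560 (3.95%) lay lower, together 1168 genes (8.25%). Differences from NT are therefore descriptions of the genes so chosen, with no test. Only comparisons between relapse groups were tested.

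RNA was sequenced from pellets of live cells in 4 groups. Barcoded HEL cells were incubated for 72 to 74 h without drug in medium with DMSO (NT, n = 2, libraries 1 and 2), with 1.8 µM doxorubicin (Doxo, n = 3, libraries 4, 5 and 6), with doxorubicin and 6 µM cytarabine (Doxo+Cyta, n = 3, libraries 19, 20 and 22) or with both and 0.1 µM decitabine (Doxo+Cyta+DAC, n = 4, libraries 30, 31, 32 and 33). Live cells were then taken from a density gradient that removes dead cells and grew drug-free for approximately 30 days, in the drug-treated cultures until the live cells were back at the number first treated. NT cultures were not depleted by drug, so they had no such regrowth. The labels call the cultures of a treatment biological replicates and name no batch.

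Doxorubicin is an anthracycline that traps topoisomerase II on DNA. Cytarabine is a cytidine analogue that stops chain elongation during replication. Decitabine is a deoxycytidine analogue that traps DNA methyltransferases and leaves newly made DNA with less methylation. A relapse in this model is the population that regrew from cells that outlived the drugs, so its RNA is read after the drugs had been gone for weeks.

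Totals ran from 12763582 to 19106235 counts per library, and 3 counts equalled 0.154 to 0.238 CPM, the level below which a value cannot be told from 0 at this depth. GATA1, TAL1, KLF1, HBG1, HBG2, EPOR, JAK2 and ITGA2B, markers of HEL cells, were detected in all 12 libraries, and none of them lay on one side of NT in every relapse. Of the lymphoid and fibroblast or endothelial markers, MS4A1 was at 0 in all libraries, CD3D, CD3E, COL3A1 and DCN stayed at or below 0.49 CPM, and COL1A1 and CDH5 at or below 1.58 CPM, while CD79A ran from 0.894 to 6 CPM. Within Doxo, libraries 5 and 6 differed least (chi-square per gene 3.1, against 29.7 and 27.3 for library 4 with each of them), and within Doxo+Cyta library 20 stood apart from 19 and 22 (46.8 and 48.6, against 7.34 between 19 and 22). Without Doxo+Cyta 20 the 2 sets held 766 and 759 genes.

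For most of the shared genes the distance was small. The gap, the log2 ratio of the relapse library nearest to NT and the NT library nearest to the relapses (prior count 2), had a median equal to 1.08-fold in both sets. The nearest libraries differed by less than 1.1-fold in CPM for 346 of the 608 higher genes (56.9%) and 329 of the 560 lower genes (58.8%). A ratio of at least 1.5-fold held for 61 higher and 35 lower genes, and a gap of 2-fold for 12 and 18. The relapse nearest to NT was most often Doxo+Cyta 19, in 27.5% of higher and 26.8% of lower genes. In bulk RNA a lower level in every cell and fewer cells that express a gene cannot be told apart.

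At the edge of the rule the values on both sides of NT nearly met. ABHD5 entered with 38.3 and 43.8 CPM in NT, 63.3, 68.5 and 62.9 with Doxo, 43.8, 45.1 and 53.3 with Doxo+Cyta and 75.4, 71.5, 82.5 and 80.8 with Doxo+Cyta+DAC. ATG16L1 missed the higher set by its library Doxo+Cyta 19, with 24.1 and 28.6 CPM in NT, 57.5, 36.8 and 34.3 with Doxo, 28.6, 37.2 and 31.7 with Doxo+Cyta and 62.9, 67.1, 64.9 and 62.5 with Doxo+Cyta+DAC. DUSP7 entered the lower set at 109 and 109.8 CPM in NT, 82.4, 98.3 and 105 with Doxo, 109, 105 and 104 with Doxo+Cyta and 64.7, 60.2, 64.5 and 62.8 with Doxo+Cyta+DAC. CD160 missed it, at 2.26 and 1.67 CPM in NT, 1.4, 0.873 and 1.01 with Doxo, 1.61, 1.67 and 1.59 with Doxo+Cyta and 1.29, 1.1, 1.21 and 1.03 with Doxo+Cyta+DAC.

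The sets also depended on the scaling. TMM gave 608 higher and 560 lower genes, so 52.1% of shared genes were higher. Relative log expression (RLE) factors gave 569 and 606 (48.4% higher), upper-quartile factors 495 and 663 (42.7%) and total counts alone 340 and 1031 (24.8%), with a shift of -0.11 in the median log2 difference of all genes under total counts. With NT 2 alone as the reference (without NT 1) the sets grew to 1092 and 1022 genes, and with NT 1 alone to 924 and 867.

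The genes with the widest gaps are taken first. HBE1 encodes the epsilon chain of embryonic haemoglobin, on chromosome 11. Its level was 176 and 151 CPM in NT, 1190, 1199 and 1239 with Doxo, 461, 597 and 664 with Doxo+Cyta and 1194, 695, 1239 and 2066 with Doxo+Cyta+DAC. Every relapse stood above both NT libraries, with Doxo tightly grouped, Doxo+Cyta lowest and Doxo+Cyta+DAC widest, and the relapse mean lay 2.56 above NT on the log2 scale. Doxo+Cyta+DAC exceeded Doxo+Cyta (log2 fold change 1.18 ± 0.26 SE, edgeR adjusted p = 0.00134). HBG1 and HBG2, the fetal globins, were in neither set, and as globin genes resemble each other some reads may be shared.

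ABCG2 encodes an efflux pump of the ABC family that carries many cytotoxic drugs out of cells, and it is a gene the study itself examined. It had the widest gap of the higher genes, at a low level, 0.103 and 0.179 CPM in NT, 2.3, 1.51 and 1.01 with Doxo, 1.85, 1.13 and 1.59 with Doxo+Cyta and 3.12, 4.82, 2.15 and 1.98 with Doxo+Cyta+DAC. The NT libraries were at or under 3 counts, so no fold is given, and every relapse held at least 1.01 CPM. Doxo+Cyta+DAC had the highest mean (log2 fold change 0.91 ± 0.36 SE, edgeR adjusted p = 0.0394, against Doxo, and log2 fold change 0.97 ± 0.36 SE, edgeR adjusted p = 0.0291, against Doxo+Cyta). Both calls were lost without Doxo+Cyta+DAC 30 or 31, the first also without Doxo 5 or Doxo 6 and when only the 2 groups were fitted, and the second also without Doxo+Cyta 20 or 22. The edgeR adjusted p reached 0.166 and 0.1 in these fits. Of 29 ABC transporters tested ABCG2 was the only one higher in every relapse (3.45%, beside 4.29% of all genes). ABCA4, a retinoid transporter, and ABCG1, a cholesterol exporter, were lower (6.9%, beside 3.95% of all genes). ABCA4 had 5 counts or fewer in every relapse and passed the low-count filter through NT alone, so this share is no independent evidence.

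CLU, which encodes the secreted chaperone clusterin, was among the most even of the higher genes. It stood at 247 and 242 CPM in NT, 589, 594 and 555 with Doxo, 508, 655 and 559 with Doxo+Cyta and 688, 479.6, 523 and 632 with Doxo+Cyta+DAC. The 10 relapses stayed within a range of 0.52 on the log2 scale, the mean difference from NT was 1.23, and no relapse comparison called the gene. GSTP1, a glutathione transferase that conjugates electrophilic drugs, stood at 37 and 37.6 CPM in NT, 119, 97.3 and 101 with Doxo, 60.5, 129 and 67.9 with Doxo+Cyta and 141, 60, 99.9 and 156 with Doxo+Cyta+DAC. Its NT libraries were close together, and the nearest relapses, Doxo+Cyta+DAC 31 and Doxo+Cyta 19, remained over 1.5-fold above them.

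**Figure D1:**
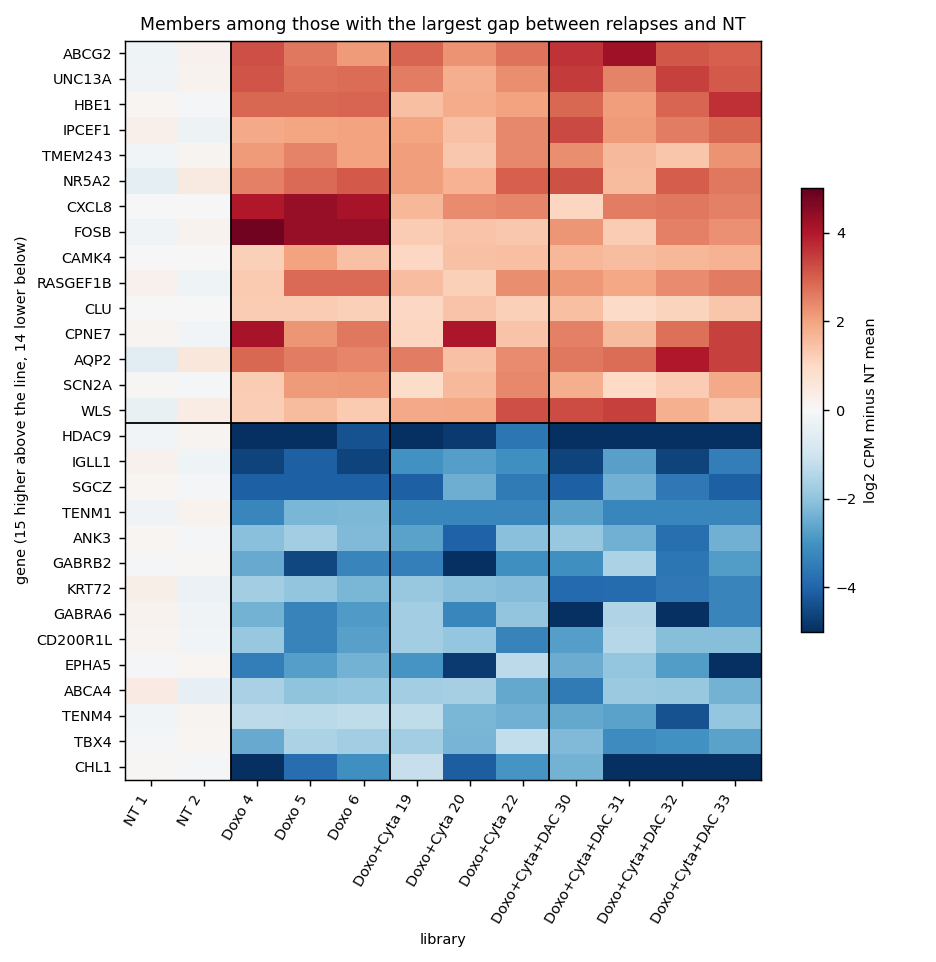
Log2 CPM (prior count 2) minus the NT mean, by colour, for 15 higher and 14 lower genes among those with the largest gap (rows) in the 12 libraries (columns). All relapse columns are red for ABCG2 to WLS and blue for HDAC9 to CHL1, since the genes were chosen so, and FOSB and CXCL8 are darkest in the 3 Doxo columns.

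UNC13A, which primes synaptic vesicles for release, stood at 0.977 and 1.31 CPM in NT, 10.9, 8.32 and 8.65 with Doxo, 7.3, 4.34 and 6.11 with Doxo+Cyta and 13.9, 6.95, 13.4 and 10.3 with Doxo+Cyta+DAC. NR5A2, a nuclear receptor, stood at 0.566 and 1.13 CPM in NT, 5.24, 6.52 and 7.7 with Doxo, 3.83, 3 and 7.27 with Doxo+Cyta and 8.39, 2.68, 7.56 and 5.62 with Doxo+Cyta+DAC. SCN2A, a sodium channel of neurons, stood at 1.49 and 1.37 CPM in NT, 3.63, 6.75 and 6.82 with Doxo, 2.84, 4.67 and 8.19 with Doxo+Cyta and 5.33, 2.96, 3.62 and 5.7 with Doxo+Cyta+DAC. For each of the 3 genes the NT pair lay below every relapse, and UNC13A was higher in Doxo+Cyta+DAC than in Doxo+Cyta (log2 fold change 0.91 ± 0.24 SE, edgeR adjusted p = 0.00518). Its neighbour MAP1S was in the higher set too, and SCN3A, the next tested gene to SCN2A, was also higher. IPCEF1, TMEM243, CAMK4, RASGEF1B, CPNE7, AQP2 and WLS complete the 15 genes, with relapse means 2.27, 2.00, 1.53, 2.11, 2.58, 2.70 and 2.10 above NT in log2 CPM. CPNE7, AQP2, IPCEF1 and RASGEF1B stood at 0.514 CPM or less in NT, so that few counts stand behind their NT values.

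The deepest loss was that of HDAC9, a class IIa histone deacetylase on chromosome 7. Its values were 19.6 and 23.8 CPM in NT, 0, 0.116 and 0.947 with Doxo, 0.124, 0.667 and 1.65 with Doxo+Cyta and 0, 0, 0.157 and 0 with Doxo+Cyta+DAC. The NT libraries held 381 and 399 counts, whereas 4 of the 10 relapses held none and the highest, Doxo+Cyta 22, reached 1.65 CPM. Doxo+Cyta+DAC lay below Doxo+Cyta (log2 fold change -3.90 ± 1.18 SE, edgeR adjusted p = 0.0109), a fitted value that depends on the prior count because 3 libraries of Doxo+Cyta+DAC were at 0, and the call was lost without Doxo+Cyta 22 (edgeR adjusted p = 0.0902).

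CHL1, a neural adhesion molecule of the L1 family, stood at 16.6 and 15.6 CPM in NT, 0.279, 1.05 and 1.83 with Doxo, 7.17, 0.801 and 1.96 with Doxo+Cyta and 3.06, 0.206, 0.0525 and 0.238 with Doxo+Cyta+DAC. Doxo+Cyta 19 kept more of it than any other relapse. GABRB2, a subunit of the GABA-A receptor, stood at 10.6 and 11.5 CPM in NT, 1.81, 0.349 and 1.01 with Doxo, 0.927, 0.2 and 1.22 with Doxo+Cyta and 1.23, 3.65, 0.787 and 1.5 with Doxo+Cyta+DAC. Its neighbour GABRA6, another subunit at a distance of 137527 bases on chromosome 5, stood at 10 and 7.74 CPM in NT, 1.6, 0.757 and 1.14 with Doxo, 2.54, 0.801 and 2.14 with Doxo+Cyta and 0, 3.03, 0.0525 and 0.792 with Doxo+Cyta+DAC. NT held the highest values of both genes, and Doxo+Cyta+DAC 31 was the highest relapse for both.

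ANK3 (ankyrin-G), of the membrane skeleton, stood at 3.29 and 2.8 CPM in NT, 0.628, 0.815 and 0.568 with Doxo, 0.371, 0.0667 and 0.611 with Doxo+Cyta and 0.735, 0.481, 0.105 and 0.475 with Doxo+Cyta+DAC. All relapses lay far below both NT libraries. TENM1 and TENM4, teneurins of neuronal contacts, and EPHA5, an ephrin receptor, were lower as well, TENM1 with 0 in 7 of 10 relapses. IGLL1, the surrogate light chain of pre-B cells, stood at 3.45 and 2.5 CPM in NT and at 0.344 CPM or less in every relapse. SGCZ, KRT72, CD200R1L, ABCA4 and TBX4 also had gaps of this size, all below 3.3 CPM in NT. TENM1, IGLL1, SGCZ, CD200R1L and ABCA4 had 5 counts or fewer in every relapse, so they passed the low-count filter through NT alone. Of these lower genes, KRT72 was called in Doxo+Cyta+DAC against both other groups (log2 fold change -2.48 ± 0.47 SE, edgeR adjusted p = 0.000427, and log2 fold change -2.42 ± 0.47 SE, edgeR adjusted p = 0.000518). KRT72 held only 1 or 2 counts in each Doxo+Cyta+DAC library and 7 to 10 in the other relapses. The former cannot be told from 0, so the size of these changes is uncertain. IGLL1 resembles other lambda light chain genes in sequence, so its reads may be shared with them.

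**Figure D2:**
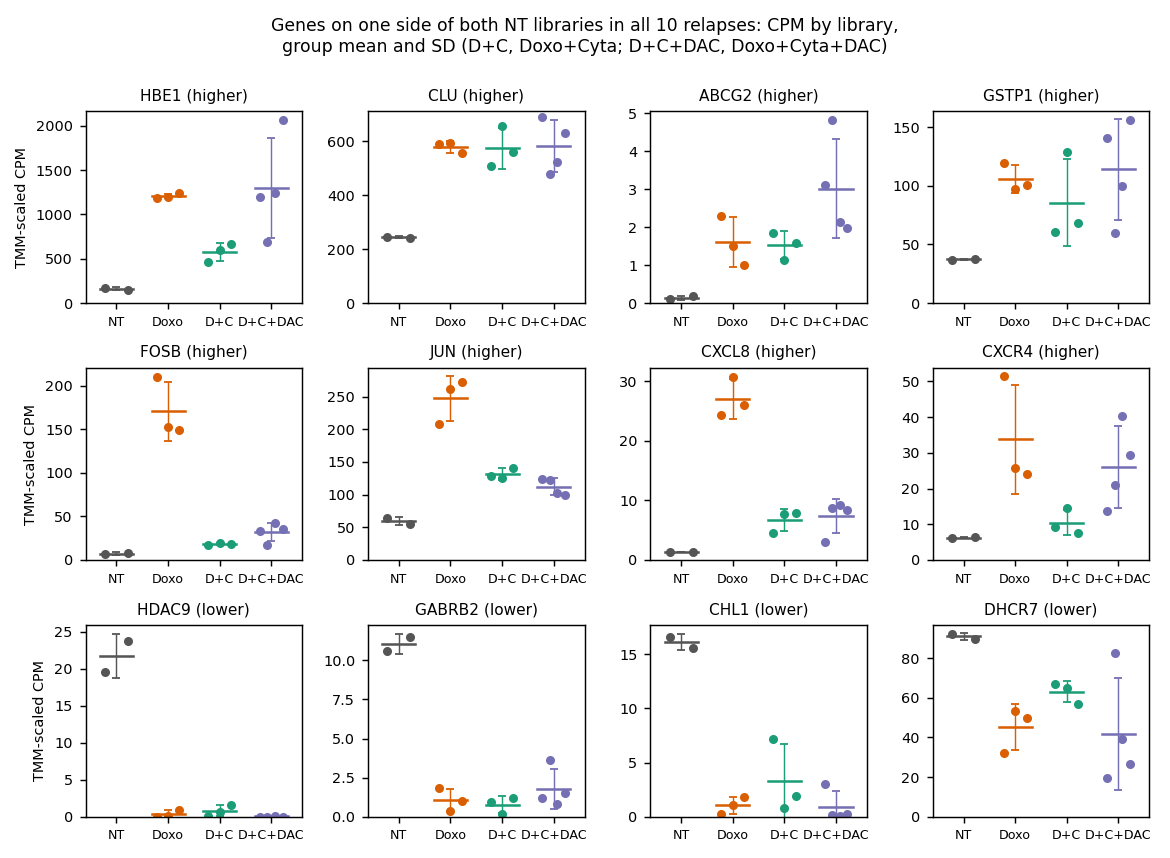
TMM-scaled CPM (vertical axes, from 0) of 8 higher and 4 lower genes in each library, with the mean (line) and SD (bar) of each group, n = 2 for NT, 3 for Doxo, 3 for Doxo+Cyta (D+C) and 4 for Doxo+Cyta+DAC (D+C+DAC). No relapse point reaches the NT points, CLU is level among relapses between 480 and 688 CPM, and FOSB, JUN and CXCL8 are highest in Doxo.

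Immediate early genes are switched on within minutes of a growth or stress signal, and FOS and JUN proteins pair to form the transcription factor AP-1. Of 38 tested, 4 (10.5%) were higher in every relapse, FOSB, JUN, NR4A2 and DUSP5, and none was lower, beside 4.29% of all genes. FOSB stood at 6.38 and 8.22 CPM in NT, 210.0, 152 and 149.8 with Doxo, 17.5, 19.6 and 18.7 with Doxo+Cyta and 33.4, 17.4, 42.4 and 35.9 with Doxo+Cyta+DAC. JUN stood at 64.1 and 55.2 CPM in NT, 208, 262 and 272 with Doxo, 129, 125 and 141 with Doxo+Cyta and 124, 123, 102 and 100.1 with Doxo+Cyta+DAC. Both were far higher in Doxo than in the other relapses, which lay nearer NT but above it. In Doxo+Cyta relative to Doxo, FOSB was lower (log2 fold change -3.20 ± 0.26 SE, edgeR adjusted p = 9.54e-05), as was JUN (log2 fold change -0.91 ± 0.13 SE, edgeR adjusted p = 0.00241). Doxo+Cyta+DAC was likewise below Doxo for FOSB (log2 fold change -2.40 ± 0.22 SE, edgeR adjusted p = 1.57e-06) and JUN (log2 fold change -1.14 ± 0.12 SE, edgeR adjusted p = 3.41e-06).

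NR4A2, an orphan nuclear receptor, kept the same order. It stood at 1.96 and 1.61 CPM in NT, 8.52, 9.55 and 8.65 with Doxo, 2.66, 2.73 and 3.67 with Doxo+Cyta and 3.31, 3.99, 3.88 and 3.09 with Doxo+Cyta+DAC and was lower in Doxo+Cyta than in Doxo (log2 fold change -1.56 ± 0.19 SE, edgeR adjusted p = 0.00129). DUSP5, a phosphatase of nuclear ERK, stood at 6.64 and 6.73 CPM in NT, 23, 21.2 and 21.9 with Doxo, 8.1, 13.6 and 8.74 with Doxo+Cyta and 16.2, 22.4, 22.5 and 17.4 with Doxo+Cyta+DAC. Here Doxo and Doxo+Cyta+DAC overlapped and Doxo+Cyta was lowest (log2 fold change -1.12 ± 0.19 SE, edgeR adjusted p = 0.00734), a call lost without Doxo+Cyta 19 and when only the 2 groups were fitted (edgeR adjusted p up to 0.0548). The fitted median of the 38 genes relative to NT, on the log2 scale, was 1.15 for Doxo, 0.33 for Doxo+Cyta and 0.02 for Doxo+Cyta+DAC. The middle value came from library 20 alone, whose own median was 0.63, while those of Doxo+Cyta 19 and 22 were -0.011 and -0.0021.

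Inflammatory genes under NF-kB gave 5 higher genes of 43 (11.6%, beside 4.29% of all genes), CXCL8, PTGS2, BCL3, ICAM1 and NFKBIB, and 1 lower gene (2.33%, beside 3.95%), TNFAIP2. CXCL8, the chemokine interleukin-8, stood at 1.39 and 1.37 CPM in NT, 24.3, 30.7 and 26.1 with Doxo, 4.58, 7.67 and 7.94 with Doxo+Cyta and 3.06, 8.67, 9.24 and 8.47 with Doxo+Cyta+DAC. PTGS2, the inducible cyclooxygenase, stood at 9.05 and 9.77 CPM in NT, 37.3, 39.5 and 42.2 with Doxo, 13.3, 12.9 and 17.9 with Doxo+Cyta and 12.4, 13.3, 13.6 and 14 with Doxo+Cyta+DAC. Doxo was above every other library for both genes, and Doxo+Cyta lay below Doxo (log2 fold change -2.01 ± 0.31 SE, edgeR adjusted p = 0.00449 for CXCL8 and log2 fold change -1.43 ± 0.14 SE, edgeR adjusted p = 0.000243 for PTGS2). PACERR, the next tested gene at a distance of 226 bases, was also higher, and as the counts ignore strand, reads of neighbouring transcripts may be shared. BCL3, a nuclear IkB protein, stood at 43 and 42.8 CPM in NT, 58.4, 58.9 and 56.3 with Doxo, 71.3, 85.7 and 68.6 with Doxo+Cyta and 64.7, 114, 84.9 and 59.2 with Doxo+Cyta+DAC, with Doxo lowest of the 3 relapse groups. TNFAIP2 stood at 145 and 152 CPM in NT, 135, 125 and 113 with Doxo, 139.8, 145 and 121 with Doxo+Cyta and 13.5, 15.1, 24.8 and 24.5 with Doxo+Cyta+DAC, so that in Doxo+Cyta 20 it was nearly at the NT level, while Doxo+Cyta+DAC was far lower (log2 fold change -2.80 ± 0.19 SE, edgeR adjusted p = 9.25e-08, against Doxo+Cyta).

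Promoter letters were read from RefSeq (GRCh38.p14), which gave 300 bases around the start for 482 of the 608 higher genes and 441 of the 560 lower genes. Several starts were listed for 28.4% of all genes, and the first was used. The AP-1 letters TGANTCA, on either strand, stood in 33 of 482 higher promoters (6.85%), 13 of 441 lower promoters (2.95%) and 4.48% of the promoters of all tested genes. Of the 52 higher genes with a ratio of at least 1.5-fold and a promoter, 8 (15.4%) held them, and of the 22 such lower genes 2 (9.09%). The TATA letters TATAAA, on either strand like all motifs here, stood in 10.4% of higher, 5.44% of lower and 5.91% of all promoters. They stood in 15.4% and 9.09% of the 1.5-fold higher and lower genes. For NF-kB, GGGANTTCC, the shares were 3.32%, 1.36% and 2.34%. The other 7 motifs searched, AGATAA for GATA factors, TTCCNGGAA for STAT factors, CACGTG for the E-box, ACGTG for the hypoxia element, TGACGTCA for the cyclic AMP element, GGGCGG for SP1 and CCAAT for NFY, were within 4 percentage points of the share in all promoters in both full sets. Among the 1.5-fold genes AGATAA stood in 7 of 52 higher (13.5%) and 3 of 22 lower promoters (13.6%), beside 5.56% of all. GGGCGG stood in 30 (57.7%) and 7 (31.8%) of them, beside 68.3% of all. Promoters of the 1.5-fold genes held a median of 22.5 CpG sites in the higher and 16.5 in the lower set, beside 26 for all. Whether this base composition had a part in the motif shares was not tested. ACGTG lies inside CACGTG, so those counts overlap. A match is a run of letters and not a shown binding site.

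The 250 bases before the start are shown for 4 higher genes with AP-1 letters and a ratio of at least 1.5-fold (CXCL8, NR5A2, AMIGO2 and GSTP1) and for FOSB, whose product is part of AP-1. The RefSeq start lay 63, 108, 0, 217 and 1 bases from the 5′ end of the gene as counted, in that order. Capitals mark AP-1 and TATA letters, and each run reads 5′ to 3′ on the gene's strand. AP-1 letters began 137 bases before the start in CXCL8, 158 in NR5A2, 231 in AMIGO2 and 66 in GSTP1. TATA letters began 31 bases before the start in CXCL8, 30 in FOSB and 201 in NR5A2. The run marked in NR5A2 is TTTATA, which reads TATAAA on the other strand. Positions are CXCL8 chr4:73740319-73740568, plus strand, NR5A2 chr1:200027460-200027709, plus strand, AMIGO2 chr12:47079952-47080201, minus strand, GSTP1 chr11:67583562-67583811, plus strand and FOSB chr19:45467746-45467995, plus strand.
CXCL8: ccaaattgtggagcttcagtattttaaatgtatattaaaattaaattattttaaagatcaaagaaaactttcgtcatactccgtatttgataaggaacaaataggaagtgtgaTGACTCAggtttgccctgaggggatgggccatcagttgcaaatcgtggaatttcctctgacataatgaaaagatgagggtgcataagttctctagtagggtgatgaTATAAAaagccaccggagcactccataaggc
NR5A2: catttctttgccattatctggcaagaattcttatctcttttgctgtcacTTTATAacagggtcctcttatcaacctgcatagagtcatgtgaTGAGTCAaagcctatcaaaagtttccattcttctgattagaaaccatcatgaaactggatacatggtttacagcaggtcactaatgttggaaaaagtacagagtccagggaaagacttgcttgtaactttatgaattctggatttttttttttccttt
AMIGO2: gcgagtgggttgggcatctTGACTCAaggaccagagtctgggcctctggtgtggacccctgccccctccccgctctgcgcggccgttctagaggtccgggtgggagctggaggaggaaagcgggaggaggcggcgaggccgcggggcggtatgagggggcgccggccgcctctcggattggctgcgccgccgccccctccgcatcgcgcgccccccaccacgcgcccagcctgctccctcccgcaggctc
GSTP1: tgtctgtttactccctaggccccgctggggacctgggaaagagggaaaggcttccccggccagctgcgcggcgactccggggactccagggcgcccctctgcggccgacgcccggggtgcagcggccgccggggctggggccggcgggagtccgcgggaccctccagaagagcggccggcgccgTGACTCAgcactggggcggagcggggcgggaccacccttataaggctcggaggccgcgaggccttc
FOSB: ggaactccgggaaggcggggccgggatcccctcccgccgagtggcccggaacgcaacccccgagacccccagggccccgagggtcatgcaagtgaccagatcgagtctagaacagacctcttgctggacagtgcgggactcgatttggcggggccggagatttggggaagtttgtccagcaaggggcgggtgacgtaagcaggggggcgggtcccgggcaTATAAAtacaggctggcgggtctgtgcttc
The GSTP1 and AMIGO2 stretches hold 28 and 26 CpG sites, the CXCL8 stretch 4 and the NR5A2 stretch 0, so that the 4 higher genes with AP-1 letters have promoters of very different base composition. Over all tested genes the median was 26 CpG in 300 bases, as in the full higher set, with 25 in the full lower set. Those 300 bases include 50 after the start, so the counts of the 250-base stretches are not on the same footing.

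Cytoskeleton and motility genes gave the largest share of any of the 35 gene lists: 10 of 45 (22.2%, beside 4.29% of all genes) were higher in every relapse and none was lower. They are the actin ACTG1, the actin-binding proteins FLNA, CALD1, CNN2, TAGLN2, TPM4 and CTTN, the myosin light chains MYL6 and MYL9, and the small GTPase CDC42. The count was 10 under RLE factors, 9 under upper-quartile factors and 6 under total counts, with 1 gene lower under the last 2. FLNA, which crosslinks actin filaments, stood at 931 and 1065 CPM in NT, 2129, 1884 and 1682 with Doxo, 1183, 1451 and 1396 with Doxo+Cyta and 1972, 1753, 2561 and 2415 with Doxo+Cyta+DAC. MYL9 stood at 1.8 and 1.73 CPM in NT, 5.93, 3.84 and 4.1 with Doxo, 4.58, 5.34 and 3.18 with Doxo+Cyta and 5.51, 5.5, 7.45 and 6.02 with Doxo+Cyta+DAC. MYL6 stood at 277 and 241 CPM in NT, 323, 338 and 347 with Doxo, 298, 435 and 303 with Doxo+Cyta and 344, 359, 331 and 349 with Doxo+Cyta+DAC. MYL9 stood well clear of NT in every group, whereas the nearest relapse, Doxo+Cyta 19, came close to NT for FLNA and MYL6. FLNA was higher in Doxo+Cyta+DAC than in Doxo+Cyta (log2 fold change 0.70 ± 0.14 SE, edgeR adjusted p = 0.000565). ACTG1 is close in sequence to other actins and their pseudogenes, so its count is uncertain.

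Lysosome genes were higher in 6 of 50 (12%, beside 4.29% of all genes), CTSA, CTSB, CTSO, IDS, ATP6V1B2 and CD63, and lower in none. The fitted log2 median of the 50 genes relative to NT was 0.12 for Doxo, 0.21 for Doxo+Cyta and -0.25 for Doxo+Cyta+DAC. The median of the list thus lay below NT with Doxo+Cyta+DAC. IDS, which degrades heparan and dermatan sulphate, stood at 61.9 and 75.1 CPM in NT, 137, 200.3 and 185 with Doxo, 107, 91.2 and 119 with Doxo+Cyta and 129, 95.1, 184 and 169 with Doxo+Cyta+DAC. CTSA, a lysosomal carboxypeptidase, stood at 25.9 and 26.4 CPM in NT, 35.7, 34.9 and 37.4 with Doxo, 40.9, 39.6 and 36.5 with Doxo+Cyta and 45.7, 38.9, 51.6 and 35 with Doxo+Cyta+DAC. Both were above NT in all groups, IDS with the widest spread in Doxo and Doxo+Cyta+DAC. Interferon-stimulated genes were higher in 6 of 58 (10.3%, beside 4.29% of all genes) and lower in 1 (1.72%, beside 3.95%). The 6 fell to 2 with upper-quartile factors and to 1 under total counts. The fitted log2 median of the 58 genes was 0.30 for Doxo, 0.30 for Doxo+Cyta and -0.15 for Doxo+Cyta+DAC. GBP1, a guanylate-binding protein, stood at 5.66 and 7.39 CPM in NT, 11.3, 18.6 and 18.9 with Doxo, 9.89, 12.9 and 13.3 with Doxo+Cyta and 16.1, 12.1, 9.97 and 13.9 with Doxo+Cyta+DAC. Every relapse was above both NT libraries, most of all Doxo 5 and Doxo 6.

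Surface receptors showed 5 higher genes of 53 (9.43%, beside 4.29% of all genes), CXCR4, CXCR5, IL21R, IL18RAP and FLT1, and 1 lower (1.89%, beside 3.95%), ERBB3. IL18RAP and CXCR5 were at or under 3 counts in NT and in at least 1 Doxo+Cyta library, where higher cannot be told from equal. CXCR4 binds CXCL12 and holds blood stem cells and leukemic cells in the marrow. It stood at 6.17 and 6.37 CPM in NT, 51.4, 25.9 and 24.1 with Doxo, 9.34, 14.5 and 7.58 with Doxo+Cyta and 13.6, 21.1, 40.4 and 29.5 with Doxo+Cyta+DAC. The relapses spread widely, with Doxo 4 and Doxo+Cyta+DAC 32 highest and Doxo+Cyta 22 nearest to NT. Doxo+Cyta was below Doxo+Cyta+DAC (log2 fold change 1.32 ± 0.36 SE, edgeR adjusted p = 0.00566). OSMR, the receptor of oncostatin M, stood at 0.823 and 0.834 CPM in NT, 4.68, 5.47 and 4.99 with Doxo, 1.92, 3.94 and 3.54 with Doxo+Cyta and 5.02, 1.58, 4.15 and 6.73 with Doxo+Cyta+DAC. ADM, which encodes adrenomedullin, was the one hypoxia and glycolysis gene of 47 in either set (2.13% higher, beside 4.29% of all genes). It stood at 2.73 and 2.86 CPM in NT, 13.7, 12.6 and 10 with Doxo, 5.5, 5.8 and 6.42 with Doxo+Cyta and 7.47, 4.26, 8.66 and 8.24 with Doxo+Cyta+DAC.

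Mitosis genes were lower in 5 of 52 (9.62%), beside 3.95% of all genes, and higher in none. They were CENPE, CENPF, TPX2, CKAP5 and ASPM. The fitted log2 median of the 52 genes relative to NT was 0.055 for Doxo, -0.12 for Doxo+Cyta and -0.207 for Doxo+Cyta+DAC. CENPE, a kinetochore motor, stood at 82.3 and 88.9 CPM in NT, 64, 63.1 and 72.8 with Doxo, 67.3, 43.4 and 61.8 with Doxo+Cyta and 59.4, 68, 56.8 and 64.2 with Doxo+Cyta+DAC. ASPM, a spindle pole protein, stood at 136 and 162 CPM in NT, 126, 115 and 115 with Doxo, 113, 73.7 and 115 with Doxo+Cyta and 113, 131, 107 and 117 with Doxo+Cyta+DAC. Doxo+Cyta 20 was lowest for both, and for ASPM Doxo+Cyta+DAC 31 came close to the lower NT library. DNA repair genes were lower in 5 of 64 (7.81%, beside the same 3.95%), BRCA1, LIG3, MRE11A, PMS2 and SLX4, and ERCC1 was higher. The list as a whole was not lower in every relapse. Its fitted log2 median relative to NT was -0.331 for Doxo, -0.279 for Doxo+Cyta and 0.179 for Doxo+Cyta+DAC. PMS2, of mismatch repair, stood at 9.62 and 10.8 CPM in NT, 7.68, 6.23 and 6.06 with Doxo, 6.31, 5.94 and 6.97 with Doxo+Cyta and 7.53, 6.4, 8.4 and 8.31 with Doxo+Cyta+DAC. Under total counts 11 mitosis and 9 repair genes were lower, but the whole lower set also grew from 560 to 1031 genes under that scaling.

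Of the BCL2 family, BCL2 and BCL2L11 were lower (2 of 18, 11.1%, beside 3.95% of all genes) and none was higher. BCL2, which holds back apoptosis, stood at 7.41 and 6.61 CPM in NT, 5.65, 2.97 and 2.97 with Doxo, 3.77, 3.94 and 3.36 with Doxo+Cyta and 4.47, 5.09, 3.52 and 3.56 with Doxo+Cyta+DAC. BCL2L11, the proapoptotic protein BIM, stood at 95.7 and 92.1 CPM in NT, 66.9, 79.9 and 77.2 with Doxo, 82.5, 70.5 and 87.3 with Doxo+Cyta and 70.3, 70.5, 77.2 and 84.3 with Doxo+Cyta+DAC. The members act in opposite ways on cell death, and both were lower in every relapse. PHLPP1 and KDSR, on either side of BCL2, were in the lower set as well.

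Chromatin regulators went both ways. DNMT3A, a DNA methyltransferase for new methylation and one of the enzymes decitabine traps, stood at 36.4 and 34.1 CPM in NT, 23.9, 26 and 27.3 with Doxo, 31.4, 28.9 and 30.2 with Doxo+Cyta and 20.6, 22.6, 20.7 and 17.6 with Doxo+Cyta+DAC. All relapses were below NT, Doxo+Cyta+DAC lowest (log2 fold change -0.57 ± 0.11 SE, edgeR adjusted p = 0.000648, against Doxo+Cyta). Of 41 Polycomb and histone deacetylase genes, 4 were lower (HDAC9, JARID2, SIRT3 and SIRT5) and 3 higher (HDAC1, HDAC4 and PHC2). These were 9.76% and 7.32%, beside 3.95% and 4.29% of all genes. HDAC1 stood at 132 and 129.7 CPM in NT, 191, 174 and 186 with Doxo, 161, 172 and 162 with Doxo+Cyta and 298, 235, 269 and 278 with Doxo+Cyta+DAC, with Doxo+Cyta+DAC above both other relapses (log2 fold change 0.56 ± 0.09 SE, edgeR adjusted p = 0.000179, and log2 fold change 0.71 ± 0.09 SE, edgeR adjusted p = 2.08e-05). JARID2, a cofactor of Polycomb repressive complex 2, stood at 87.9 and 92.9 CPM in NT, 48.6, 67.4 and 62.4 with Doxo, 75.6, 48.7 and 78.2 with Doxo+Cyta and 48, 76.5, 47 and 37.9 with Doxo+Cyta+DAC.

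DHCR7, which makes cholesterol in the last step of its synthesis, was the one lower gene of 35 in cholesterol and fatty acid synthesis (2.86%, beside 3.95% of all genes). It stood at 92.3 and 89.9 CPM in NT, 32.1, 53.6 and 50 with Doxo, 67, 65 and 57.1 with Doxo+Cyta and 19.4, 82.6, 39.1 and 26.4 with Doxo+Cyta+DAC, and Doxo+Cyta+DAC ran from the lowest to the highest of all relapses. Of 43 erythroid genes, HBE1 and DMTN were higher and 2 lower, GYPE among them, shares of 4.65% both ways that lie near those of all genes. DMTN, an actin-binding protein of the red cell membrane, stood at 136 and 134 CPM in NT, 258, 281 and 274 with Doxo, 213, 217 and 214 with Doxo+Cyta and 152, 139.8, 173 and 171 with Doxo+Cyta+DAC, and Doxo+Cyta+DAC was nearest to NT (log2 fold change -0.77 ± 0.09 SE, edgeR adjusted p = 9.91e-06, against Doxo). ERG, a transcription factor of blood stem cells, stood at 7.87 and 7.09 CPM in NT, 12.4, 11.8 and 10.7 with Doxo, 11.8, 10.1 and 13.1 with Doxo+Cyta and 31.6, 17.5, 19.5 and 19.2 with Doxo+Cyta+DAC, and LMO2 was lower. Ribosome biogenesis (72 genes), imprinted genes (21), and lymphoid (9), fibroblast and endothelial (7) and cancer-testis genes (7) held no gene of either set.

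Position gave a further pattern, found after the values were seen. Over 178 windows of 10 Mb with at least 30 tested genes, the first and second windows of chromosome 6 had the largest shares of lower genes, 10 of 37 (27.0%) and 7 of 30 (23.3%), and no higher gene. The 17 genes of the first 20 Mb are BPHL, CDYL, DUSP22, ECI2, EXOC2, FOXC1, LINC01011, RREB1, SLC35B3, SNRNP48, GCNT2, JARID2, KIF13A, MYLIP, NEDD9, SIRT5 and TMEM14C. The median over all 67 tested genes lay below NT by 0.33 to 0.73 on the log2 scale in 9 relapses, whereas Doxo+Cyta+DAC 31 was at 0.05. The 50 genes of the region outside the set had medians of -0.31 to -0.65 in the 6 Doxo and Doxo+Cyta libraries, and -0.25, 0.19, -0.10 and -0.60 in Doxo+Cyta+DAC 30 to 33. JARID2 and SIRT5 of the chromatin list lie here. The copy number of the region was not measured here.

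Higher genes were most frequent on chromosome 8 from 20 to 40 Mb, 18 of 96 (18.8%), with no lower gene. CLU, SCARA3 and CCDC25 lie there in a row, and DMTN and ATP6V1B2 too. The region's median was 0.19 to 0.34 above NT in Doxo and Doxo+Cyta and 0.11 to 0.17 above in Doxo+Cyta+DAC, where the 78 other genes stood at 0.04, -0.07, -0.06 and -0.09. Chromosome 1 from 20 to 30 Mb held 21 higher genes of 128 (16.4%), and chromosome 19 as a whole 63 higher of 1030 (6.12%) and 15 lower (1.46%). The next tested gene was in the same set for 37 of 551 higher genes (6.72%, beside 4.29% of all genes) and 32 of 521 lower genes (6.14%, beside 3.95%). Side by side in the lower set lay GABRB2 and GABRA6, KRT72 and KRT73, CD200R1L and CD200R1, and MS4A3, MS4A2 and MS4A6A.

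The higher genes had a median exon length of 2824 bases and the lower genes 4109, beside 3166 for all tested genes. Median GC content was 49.4%, 46.7% and 48.1%. Of the lower genes 7.14% were long noncoding RNAs, of the higher genes 2.80%, and of all genes 5.25%. The mean level was a median of 35.4 CPM in the higher genes, 15 CPM in the lower genes and 22.9 CPM overall. Whether length, base composition or level had a part in membership was not tested.

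How far the relapses differed in the shared genes was tested between groups, where no NT value enters the contrast. The rule still bounds those differences, since no relapse of a member can cross NT. In Doxo+Cyta+DAC relative to Doxo, 440 of the 1168 genes (37.7%) were called at an edgeR adjusted p under 0.05, beside 59.5% of all tested genes. Of the higher set 154 genes (25.3%) were called higher and 77 (12.7%) lower, beside 29.1% and 30.4% of all genes. Of the lower set 45 (8.04%) were called higher and 164 (29.3%) lower, beside the same shares. Against Doxo+Cyta the number was 460 (39.4%), beside 60.3%. Of the higher set 207 (34.0%) were called higher and 27 (4.44%) lower, and of the lower set 11 (1.96%) and 215 (38.4%), beside 29.8% and 30.5% of all genes. In Doxo+Cyta relative to Doxo it was 51 (4.37%), beside 3.40%. Of the higher genes 303 (49.8%) and of the lower genes 283 (50.5%) were called in none of the 3 comparisons, beside 29.7% of all genes.

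Relative to NT (log2, fitted), the higher genes had a median of 0.56 with Doxo, 0.44 with Doxo+Cyta and 0.68 with the triple treatment, and the lower genes -0.59, -0.41 and -0.75. TMM holds the median of all tested genes near 0, so their spread is the fairer comparison. A change of 2-fold or more was seen in 27.1%, 20.1% and 32.2% of higher genes and 21.8%, 10.2% and 34.8% of lower genes, and in 7.57%, 4.65% and 21.0% of all genes, the same order of the groups. By library, higher genes ran from 0.33 in Doxo+Cyta 19 to 0.69 in Doxo+Cyta+DAC 32. Changes of 2-fold or more in all 3 groups were seen in 100 of the 608 higher and 41 of the 560 lower genes. These genes were chosen for differing from NT in every group. The same count was not made over all tested genes, so these numbers have no background.

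**Figure D3:**
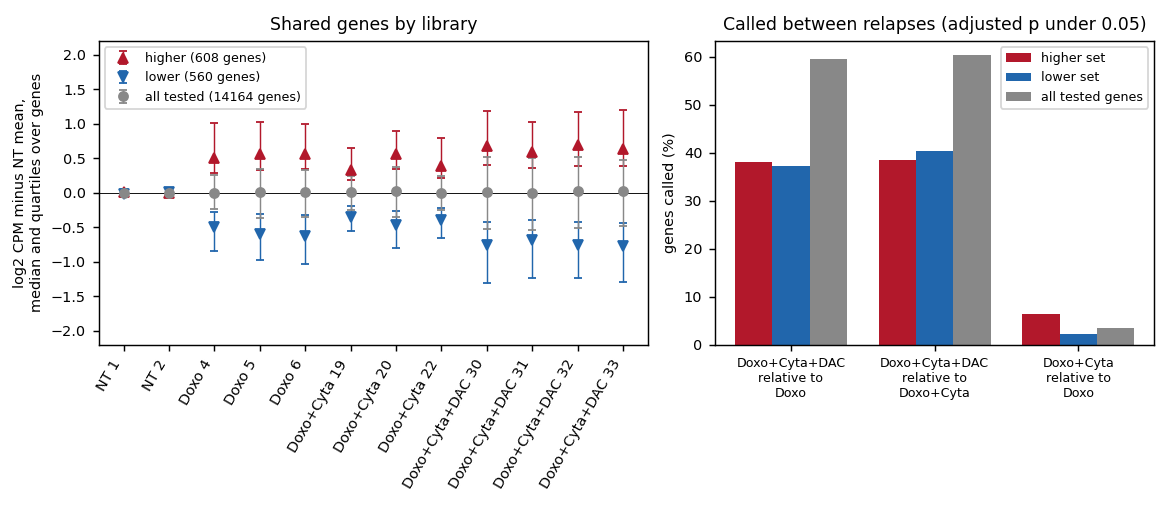
Left, median and quartiles over genes of log2 CPM minus the NT mean in each library, for the 608 higher, 560 lower and 14164 tested genes. Right, percent of the higher set, the lower set and all tested genes called between relapse groups (edgeR, adjusted p under 0.05), where both sets are below all genes in the comparisons with Doxo+Cyta+DAC.

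Doxo+Cyta+DAC exceeded both other relapses in 135 higher genes (22.2%, beside 24.3% of all genes) and lay below both in 147 lower genes (26.2%, beside 25.2%). IL18RAP, HRH1 and AKAP12 had the largest fitted changes. IL18RAP, a chain of the interleukin-18 receptor, stood at 0 and 0.0596 CPM in NT, 0.558, 0.233 and 0.316 with Doxo, 0.124, 0.267 and 0.183 with Doxo+Cyta and 2.39, 3.71, 3.25 and 3.25 with Doxo+Cyta+DAC. HRH1, the histamine H1 receptor, stood at 0.257 and 0.238 CPM in NT, 1.4, 0.757 and 0.505 with Doxo, 0.556, 0.334 and 0.367 with Doxo+Cyta and 5.27, 7.5, 4.62 and 4.67 with Doxo+Cyta+DAC. AKAP12, which anchors protein kinase A, stood at 0.772 and 0.536 CPM in NT, 2.79, 1.22 and 1.07 with Doxo, 0.927, 1.13 and 0.978 with Doxo+Cyta and 4.1, 27.7, 6.09 and 6.57 with Doxo+Cyta+DAC. All 3 were low in Doxo and Doxo+Cyta and clearly higher in Doxo+Cyta+DAC, where AKAP12 was highest in library 31. IL18RAP had 8 counts or fewer in every library outside Doxo+Cyta+DAC, so it passed the filter through that group alone and no test is given. Against Doxo the changes were log2 fold change 2.65 ± 0.32 SE, edgeR adjusted p = 1.21e-05 for HRH1 and log2 fold change 2.72 ± 0.61 SE, edgeR adjusted p = 0.00166 for AKAP12.

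Among lower genes FAM178B stood at 27.3 and 25.7 CPM in NT, 25.1, 19.5 and 17.7 with Doxo, 18.5, 22.6 and 19.2 with Doxo+Cyta and 0.429, 0.413, 0.472 and 1.74 with Doxo+Cyta+DAC. TNS4, the focal adhesion protein tensin 4, stood at 49.6 and 52.9 CPM in NT, 41.2, 18.4 and 17.7 with Doxo, 38.9, 36.6 and 34 with Doxo+Cyta and 3.19, 4.68, 2.41 and 4.83 with Doxo+Cyta+DAC. C17orf99 stood at 3.09 and 3.75 CPM in NT, 0.628, 0.873 and 1.51 with Doxo, 2.91, 2.47 and 1.34 with Doxo+Cyta and 0.0612, 0.344, 0.0525 and 0.158 with Doxo+Cyta+DAC. The first barely left the NT level in Doxo 4, and all 3 were near 0 or strongly reduced in Doxo+Cyta+DAC. Against Doxo the changes were log2 fold change -4.84 ± 0.32 SE, edgeR adjusted p = 1.68e-07 for FAM178B, log2 fold change -2.79 ± 0.29 SE, edgeR adjusted p = 3.64e-06 for TNS4 and log2 fold change -2.73 ± 0.56 SE, edgeR adjusted p = 0.00087 for C17orf99. C17orf99 was under 3 counts in Doxo+Cyta+DAC 30, 32 and 33, so the size of its change is uncertain. DNAJA1, an HSP40 chaperone, was a higher gene with a rise of this kind, at 74.6 and 74.2 CPM in NT, 101, 109 and 109 with Doxo, 82.2, 87.3 and 80 with Doxo+Cyta and 186, 198, 185 and 183 with Doxo+Cyta+DAC (log2 fold change 0.82 ± 0.08 SE, edgeR adjusted p = 2.97e-06, against Doxo).

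In Doxo+Cyta relative to Doxo the calls went one way. All 39 called genes of the higher set (6.41%, beside 2.32% of all genes called lower) were lower in Doxo+Cyta, and all 12 of the lower set (2.14%, beside 1.07% called higher) were higher, so that the Doxo+Cyta mean was nearer NT in all 51. The number was 17 without Doxo+Cyta 19, 21 without Doxo 5, 27 without Doxo 6, 94 without Doxo 4 and 13 when only the 2 groups were fitted. The share of all tested genes called in these fits is not given here. A change among the shared genes therefore cannot be told from one over all genes. CDKN1A, the cell cycle inhibitor p21, stood at 11.1 and 11.4 CPM in NT, 128, 84.8 and 81.5 with Doxo, 11.9, 46 and 13.1 with Doxo+Cyta and 34.5, 91.5, 67.7 and 49.6 with Doxo+Cyta+DAC. CDKN1A hardly left NT in Doxo+Cyta 19 and 22 while Doxo+Cyta 20 reached 46 CPM, and its call (log2 fold change -2.06 ± 0.45 SE, edgeR adjusted p = 0.0251) was lost without Doxo 5, Doxo 6, Doxo+Cyta 19 or Doxo+Cyta 22 and when only the 2 groups were fitted (edgeR adjusted p up to 0.0963).

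LINC00176, RPARP-AS1 and DDX11L2 of the lower set were the widest in the other direction. LINC00176 stood at 2.83 and 3.1 CPM in NT, 0.628, 0.0582 and 0.505 with Doxo, 2.23, 2.47 and 2.02 with Doxo+Cyta and 1.84, 2.41, 1.63 and 1.5 with Doxo+Cyta+DAC. RPARP-AS1 stood at 8.9 and 8.93 CPM in NT, 2.16, 2.79 and 2.52 with Doxo, 6.31, 7.21 and 5.68 with Doxo+Cyta and 7.53, 8.19, 6.51 and 5.94 with Doxo+Cyta+DAC. DDX11L2, one of a family of near-identical copies, stood at 4.37 and 4.71 CPM in NT, 1.54, 0.582 and 1.14 with Doxo, 3.71, 3.87 and 3.42 with Doxo+Cyta and 2.76, 1.58, 1.63 and 1.43 with Doxo+Cyta+DAC. Doxo was lowest for the first 2, and for DDX11L2 it overlapped Doxo+Cyta+DAC. The changes in Doxo+Cyta relative to Doxo were log2 fold change 2.52 ± 0.44 SE, edgeR adjusted p = 0.00734 for LINC00176, log2 fold change 1.35 ± 0.19 SE, edgeR adjusted p = 0.00241 for RPARP-AS1 and log2 fold change 1.77 ± 0.32 SE, edgeR adjusted p = 0.00962 for DDX11L2. Those of LINC00176 and DDX11L2 were lost when only the 2 groups were fitted (edgeR adjusted p = 0.0745 and 0.0611).

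The most even of the genes with a 2-fold mean difference from NT may be set beside these. Among higher genes they were ZNF547, CLU, AMIGO2, MED26 and KRT79, and among lower genes IRAK1BP1, LINC01232, ADGRV1, ZNF619 and TENM1. TENM1 had 2 counts or fewer in every relapse, so its small range reflects the floor of the measure. KRT79, a keratin, stood at 8.18 and 9.23 CPM in NT, 22.1, 24.5 and 22.4 with Doxo, 19.4, 27.9 and 16.1 with Doxo+Cyta and 17, 28.6, 26.1 and 26.4 with Doxo+Cyta+DAC. MED26, a subunit of Mediator, stood at 9.57 and 10.7 CPM in NT, 25.8, 26 and 26.6 with Doxo, 17.2, 15.7 and 15.9 with Doxo+Cyta and 26.2, 22.8, 22 and 24.9 with Doxo+Cyta+DAC. ADGRV1, a very large adhesion receptor, stood at 13.1 and 14.6 CPM in NT, 6.28, 7.57 and 5.11 with Doxo, 7.79, 4.34 and 7.76 with Doxo+Cyta and 5.7, 5.37, 7.35 and 6.41 with Doxo+Cyta+DAC. NT and relapses did not overlap, as the rule requires, and the relapses lay within about their own group's spread for KRT79 and ADGRV1, which no comparison called. MED26 was lower in Doxo+Cyta than in Doxo+Cyta+DAC (log2 fold change 0.56 ± 0.11 SE, edgeR adjusted p = 0.000764).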

How the data were processed

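RNA from 12 HEL cultures was sequenced by the authors (Illumina TruSeq libraries). Per the labels and the file header, the deposited values are raw counts per gene, made by the authors with Bowtie2 2.2.8 on GRCh38 and featureCounts 1.6.0 without strand (option 0). Of 26485 genes, 4 lacked a count in 1 column and were left out. Among the rest 4 names had turned into dates, and 1201 genes lay on several contigs. Genes were filtered with filterByExpr (14164 kept, with 54 higher and 109 lower genes of the whole table below it, at most 22 counts in a library) and scaled by TMM. One quasi-likelihood model (edgeR 4.0.16, R 4.3.3) held all 12 libraries and 4 groups. The 3 relapse comparisons were two-sided with Benjamini-Hochberg adjustment over 14164 genes, called under 0.05. SEs are the log2 fold change over the root of its F. DESeq2 1.42.0, other scalings and filters, drawn-down libraries and left-out libraries were alternatives. The test was also run on simulated data with few changed genes and the same spread for every gene. That run does not check its error rate in these data, where most genes were called in some comparisons. p-values measure the spread between cultures of 1 cell line.

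The shared genes, the 35 gene lists and the motifs were chosen with earlier results of these data known. Named genes had a mean of at least 1 CPM on their higher side: per direction the 15 with the largest gap, the 5 with the smallest range among relapses at a 2-fold mean difference, the 3 with the largest change in each relapse comparison, up to 4 of each list by gap, the 2 nearest to the edge on either side, and the genes the study names. Genes of chromosome Y and XIST were left out. Genes named by count (members of lists and regions) were chosen after their values were seen. Promoters came from RefSeq, GRCh38.p14. Where HBE1, CLU, SCN3A, KRT72, NR4A2, DUSP5 or MYL9 is concerned no promoter was used here. Some genes that the rule names are not reported here.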

Additional observations from a re-analysis of the deposited data

Results flagged for a closer look

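Between relapse groups the effects relative to NT differed, by test of the difference, for 440 shared genes in Doxo+Cyta+DAC relative to Doxo, 460 relative to Doxo+Cyta and 51 in Doxo+Cyta relative to Doxo (edgeR adjusted p under 0.05). In that order these were 37.7%, 39.4% and 4.37% of the shared genes, beside 59.5%, 60.3% and 3.40% of all tested genes. The widest log2 fold changes in Doxo+Cyta+DAC relative to Doxo were 3.09 for IL18RAP, 2.72 for AKAP12, 2.64 for HRH1, -4.84 for FAM178B, -2.79 for TNS4 and -2.73 for C17orf99. Relative to Doxo+Cyta they were 4.00 for IL18RAP, 3.69 for HRH1, 3.44 for AKAP12, -4.80 for FAM178B, -3.90 for HDAC9 and -3.88 for C17orf99. IL18RAP passed the low-count filter through Doxo+Cyta+DAC alone, so its values are no independent evidence of a difference. In Doxo+Cyta relative to Doxo they included -3.20 for FOSB, -2.06 for CDKN1A, 2.52 for LINC00176, 1.77 for DDX11L2 and 1.35 for RPARP-AS1.

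Single libraries of Doxo+Cyta+DAC, the one group of 4, stood apart by Dixon's criterion (gap to the nearest library over the group's range, on log2 CPM) in 7 of the 131 named genes, and chance flags about 1 in 20 such groups. Library 30 was lowest for CXCL8 (0.921) and ATF4 (0.851). Library 32 was highest for CXCR5 (0.865) and FLT1 (0.863). Library 33 was highest for FAM178B (0.915). HDAC9 in library 32 and TENM1 in library 30 gave a ratio of 1 because the other 3 libraries were at 0.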

How the results depend on the processing

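Under total counts the higher set held 340 genes and the lower set 1031, and with a ratio of at least 1.5-fold 61 and 35. Leaving out single libraries gave 637 to 1092 higher and 582 to 1022 lower genes, both highest without NT 1 (without NT 2, 924 and 867). The scaling factors were kept and a left-out library only removes a condition of the rule, so these sets could only grow. RLE and upper-quartile factors, the 2 other filters and drawn-down libraries kept both counts within 1.5 times. With a fold change over 2 as well, calls among shared genes were 108 in Doxo+Cyta+DAC relative to Doxo, 141 relative to Doxo+Cyta and 23 in Doxo+Cyta relative to Doxo. For the last, DESeq2 gave 104 and a fit of only the 2 groups 13. Without single libraries the 3 counts ran from 309 to 434, 379 to 502 and 17 to 94. None of these alternative counts has the share of all tested genes beside it, so they say nothing particular to the shared genes. Over 131 named genes the difference from NT moved by more than 1 SD in 27 of 1965 alternatives and reversed in none of them. A left-out library cannot reverse a gene chosen by the rule, so only the other scalings could have done so. Of 120 named calls between relapses, 1260 of 1422 alternatives kept the call, 162 lost it and none reversed. Taking the listed start nearest to the counted gene, an alternative chosen after seeing the data, left all 40 motif shares within their 95% binomial (exact) interval, with AP-1 letters in 6.77% of higher and 3.21% of lower promoters, beside 4.28% of all. No paired analysis was possible because no replicate number occurs in more than 1 group. Depth limits the genes near 0, where 3 counts equal 0.154 to 0.238 CPM. With only 2 NT libraries, a gene called shared rests on 2 reference values.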

Other observations

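Of 76 oxidative phosphorylation genes 5 (6.58%, beside 4.29% of all genes) were higher in every relapse and none lower, among them NDUFB9 and NDUFA12, subunits of complex I. The fitted log2 median of the 76 genes relative to NT was -0.055 for Doxo, 0.135 for Doxo+Cyta and 0.406 for Doxo+Cyta+DAC. NDUFA12 stood at 41.2 and 37.8 CPM in NT, 51, 46.9 and 47.3 with Doxo, 43.8, 63.1 and 51.6 with Doxo+Cyta and 80.8, 77.3, 71.3 and 71 with Doxo+Cyta+DAC, and Doxo+Cyta+DAC was above Doxo (log2 fold change 0.63 ± 0.12 SE, edgeR adjusted p = 0.000521). Of 36 ATF4 and amino acid genes, ATF4 itself, the transcription factor of the integrated stress response, and GARS, the glycine tRNA synthetase, were higher. This share of 5.56% lies near the 4.29% of all genes. ATF4 stood at 466 and 452 CPM in NT, 670.2, 734 and 759 with Doxo, 556, 661 and 539 with Doxo+Cyta and 555, 582, 585 and 587 with Doxo+Cyta+DAC, with Doxo highest.

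CNN2, a calponin, stood at 138 and 146 CPM in NT, 346, 246 and 242 with Doxo, 161, 207 and 164 with Doxo+Cyta and 255, 279.9, 224 and 218 with Doxo+Cyta+DAC, and CXCR5, a chemokine receptor of lymphocytes, at 0.103 and 0.0596 CPM in NT, 0.768, 1.57 and 0.316 with Doxo, 0.371, 0.4 and 0.183 with Doxo+Cyta and 1.72, 1.51, 7.61 and 1.35 with Doxo+Cyta+DAC. CXCR5 was highest in Doxo+Cyta+DAC 32, and its NT libraries and Doxo+Cyta 22 were at or under 3 counts. TIMP1, an inhibitor of matrix proteases, stood at 69.8 and 65.6 CPM in NT, 98.8, 108 and 114 with Doxo, 100.4, 146 and 94 with Doxo+Cyta and 81.5, 87.5, 85.2 and 86.6 with Doxo+Cyta+DAC, where Doxo+Cyta+DAC lay nearest to NT. CD47, which keeps macrophages from engulfing a cell, stood at 242 and 256 CPM in NT, 183, 212 and 215 with Doxo, 234, 164 and 224 with Doxo+Cyta and 156, 177, 147 and 167 with Doxo+Cyta+DAC, with all relapses below the lower NT library.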
